A study of Mus musculus with 6 samples.

Results

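Transcripts of 8 genes of the interleukin-1 (IL-1) system were followed in M2c-polarized macrophages with and without the soluble epoxide hydrolase (sEH), the enzyme encoded by *Ephx2* that converts fatty acid epoxides to diols. They were the cytokine genes *Il1a*, *Il1b* and *Il18*, the receptor antagonist *Il1rn*, the IL-18 binding protein *Il18bp*, the signalling receptor *Il1r1*, the decoy receptor *Il1r2* and the shared accessory chain *Il1rap*. The genes were chosen by symbol for their place in the pathway, with earlier results of these data known. All 8 of 8 were found among the 19309 genes of the count table. RNA was compared between 3 sEH-/- and 3 wild-type mice, with 1 library per mouse. In the sEH-/- mice *Ephx2* is deleted throughout the body, so the bone marrow precursors lacked the enzyme as well. All 6 cultures came from bone marrow of mice aged 8 to 10 weeks and were given the same factors. Differentiation took 7 days with 15 ng/mL of both M-CSF and GM-CSF. The resulting cells were turned into M1 macrophages with IFN-γ (1 ng/mL) plus LPS (10 ng/mL), and TGF-β1 (10 ng/mL) then repolarized them to the M2c state. According to the labels the TGF-β1 step lasted 48 h and the M1 step 24 h. The methods put the TGF-β1 step at 24 or 48 h and the M1 step at 12 h. Untreated (M0) and M1 macrophages were not analysed here, so every value describes cells that had been stimulated with LPS and IFN-γ before TGF-β1.

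IL-1α and IL-1β bind the same receptor, IL-1R1, which then recruits the accessory protein IL-1RAP and signals through MyD88 and IRAK kinases to NF-κB. The receptor antagonist occupies IL-1R1 without recruiting the accessory chain, and IL-1R2 binds the cytokine but lacks the signalling domain. IL-1β and IL-18 are made as inactive precursors that are cleaved by caspase-1 in inflammasomes, and IL-18 is held in check by its binding protein. In macrophages *Il1b* is a classical target of LPS, whereas the *Il18* precursor is made to some degree without stimulation.

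Each library held between 4400197 and 6096440 counts. The unit is CPM, the count divided by the TMM-normalized library size and scaled alike in all libraries, and a log2 fold change is always that of sEH-/- over wild-type. Tests were run with edgeR (quasi-likelihood) on the 13785 genes whose mean count exceeded 5. A gene was called when its Benjamini-Hochberg adjusted p was below 0.05 and its level differed by more than 1.5-fold in either direction, the threshold for a call below. *Ephx2* itself was counted 4, 2 and 1 times in sEH-/- libraries, but 26, 49 and 57 times in those of wild-type mice, as labelled. The macrophage markers (*Adgre1*, *Cd68*, *Csf1r*, *Itgam*, *Fcgr1*, *Mertk*, *Lyz2* and *Cd14*) were present in all libraries, 8 of 8, with a summed level of 1980 to 2460 CPM in sEH-/- and 1740 to 2200 CPM in wild-type cells. Of 11 neutrophil markers, 8 were in the table, and their sum (284 to 360 CPM in sEH-/-, 266 to 317 CPM in wild-type cells) came almost entirely from *Mmp8*. The neutrophil genes *S100a9*, *Ltf*, *Ngp*, *Elane*, *Camp* and *Cxcr2* had at most 10 counts in any library, although *Camp*, *Ngp* and *Elane* were higher in every sEH-/- library. *S100a8*, which was also higher in every sEH-/- library, had 23.9 to 29.7 CPM against 17.1 to 20.1 CPM and was not called (adjusted p = 0.057 with edgeR). Dendritic cell markers, mostly *Clec9a*, summed to 27.0 to 57.7 CPM and 42.2 to 58.9 CPM, respectively. All 3 that were tested had estimates below 0, among them *Zbtb46* with 5.30, 3.23 and 9.28 CPM against 9.23, 14.6 and 10.6 CPM (log2 fold change -0.98, adjusted p = 0.115 with edgeR). Lymphocyte markers summed to at most 0.807 CPM.

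Deletion of the sEH was accompanied by a higher level of *Il1b*, by 4.95-fold, and the other members did not pass the test. Thus 1 of the 8 members was called, against 1.51% of all genes tested called higher and 2.61% called in either direction (1.1% lower). The median log2 fold change of the 8 members was 0.086, with 6 above and 2 below 0, and 49.8% of all genes tested had a log2 fold change above 0 (median over all genes -0.000922). The genotypes did not overlap for *Il1b* and *Il18*, both higher in sEH-/- cells, against 11.8% of all genes without overlap in that direction and 26.3% in either.

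**Figure D1:**
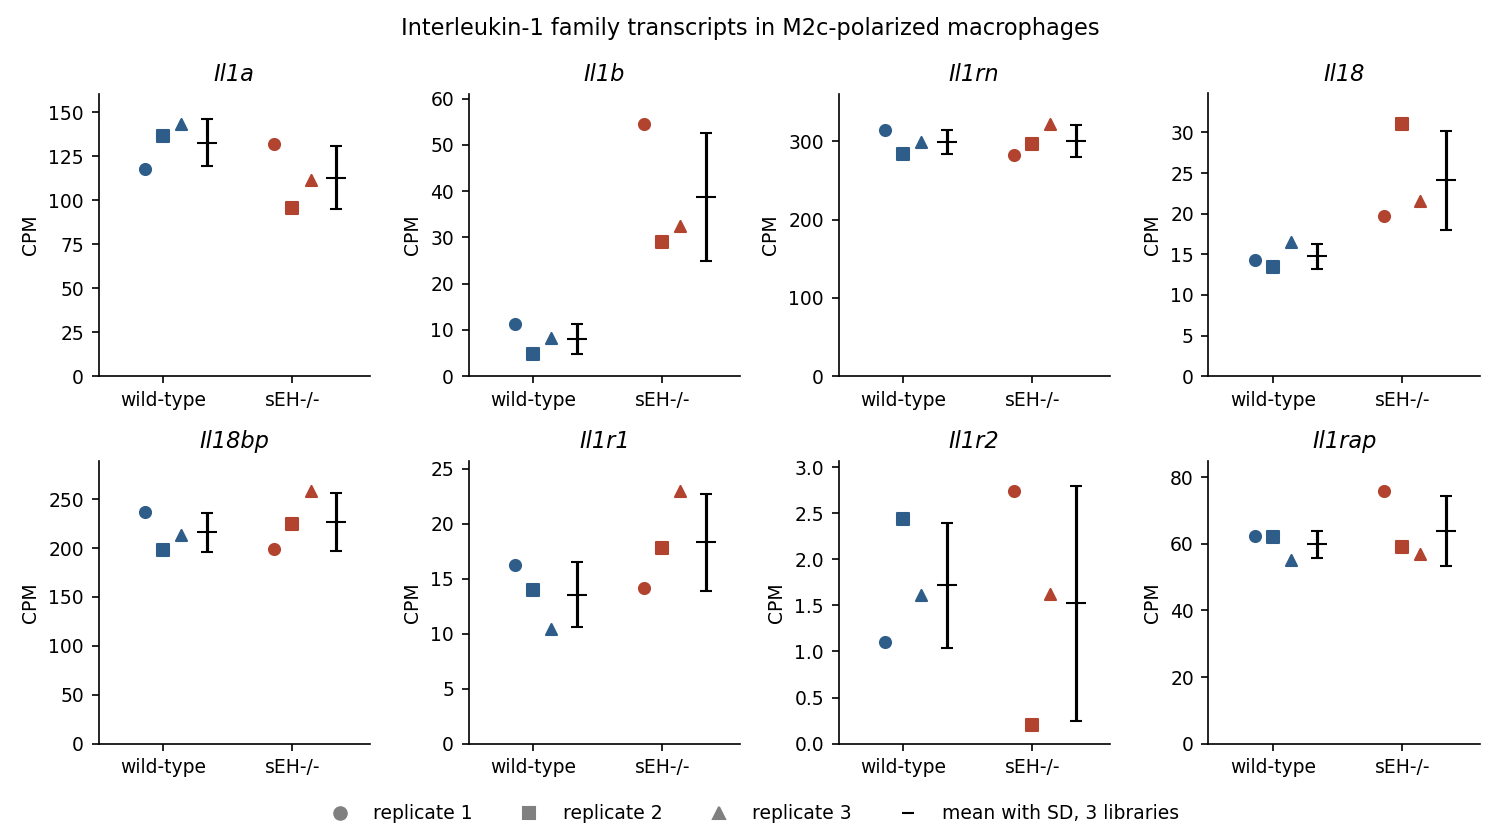
CPM of the 8 members (linear axes from 0, each panel with its own scale) in the 3 wild-type and 3 sEH-/- libraries, with symbols for the replicate number and a bar for the mean and SD of 3 libraries. The 3 sEH-/- libraries lie above the 3 wild-type libraries for *Il1b* (29.1 to 54.6 against 4.71 to 11.2 CPM) and *Il18* (19.7 to 31.1 against 13.5 to 16.5 CPM), and the genotypes overlap in the other 6 panels.

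*Il1b* (ENSMUSG00000027398, chromosome 2, 129364570 to 129371139 on the minus strand of mm10, 6 exons) encodes IL-1β. It had 54.6, 29.1 and 32.5 CPM in the sEH-/- libraries, compared with 11.2, 4.71 and 8.25 CPM in wild-type libraries. The lowest sEH-/- library was thus well above the highest wild-type library, and sEH-/- replicate 1 stood above the other two. These levels rested on 319, 144 and 140 counts against 51, 29 and 46 counts. The log2 fold change was 2.31 (SE 0.31, 95% confidence interval 1.62 to 3.0, and a Benjamini-Hochberg adjusted p of 0.0105 from edgeR's quasi-likelihood test). The interval corresponds to a level 3.08-fold to 7.98-fold that of wild-type cells. With 1 library left out at a time the log2 fold change ranged from 1.96 to 2.60, and the call held without sEH-/- replicate 1. The call was lost without wild-type replicate 3 (log2 fold change 2.34, adjusted p = 0.0886 with edgeR), in a fit that called 6 genes in all. The antisense gene *Il1bos*, which shares 25 exonic bases with *Il1b* on the opposite strand, had at most 1 count in a library.

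*Il1a* (ENSMUSG00000027399, chromosome 2, 129299610 to 129309972 on the minus strand, 7 exons) encodes IL-1α, which is active without caspase-1 cleavage. Its gene lies 54.6 kb from *Il1b* in the same orientation. The sEH-/- libraries had 131.7, 95.4 and 111.5 CPM and the wild-type libraries 117.8, 136.6 and 143.4 CPM. The genotypes overlapped, with sEH-/- replicate 2 lowest and wild-type replicate 3 highest. The log2 fold change was -0.23 (SE 0.12, 95% confidence interval -0.49 to 0.025, adjusted p = 0.263 with edgeR), and it stayed below 0 with any library left out (-0.36 to -0.11). An increase of the size seen for *Il1b* was therefore outside the interval for *Il1a*.

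The sequences before the starts of these neighbouring genes are shown because 1 of them was called and the other was not. They are the 250 bases upstream of the start annotated by RefSeq in GRCm38.p6, chr2:129371140-129371389 for *Il1b* and chr2:129309973-129310222 for *Il1a*, both read 5′ to 3′ on the minus strand. Capitals mark all matches, on either strand, to the motifs searched, namely the NF-κB consensus (by its usual degenerate form), C/EBP (TTNCNNAA), PU.1 (GAGGAA), AP-1 (TGANTCA), the IFN-γ-activated site GAS (TTCNNNGAA), the Smad element (CAGAC) and the TATA box (TATAAA).
Il1b: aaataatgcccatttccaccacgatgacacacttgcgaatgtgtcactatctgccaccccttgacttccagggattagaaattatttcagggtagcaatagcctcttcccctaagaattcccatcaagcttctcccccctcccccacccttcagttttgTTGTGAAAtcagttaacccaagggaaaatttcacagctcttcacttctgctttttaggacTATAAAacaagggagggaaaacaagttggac
Il1a: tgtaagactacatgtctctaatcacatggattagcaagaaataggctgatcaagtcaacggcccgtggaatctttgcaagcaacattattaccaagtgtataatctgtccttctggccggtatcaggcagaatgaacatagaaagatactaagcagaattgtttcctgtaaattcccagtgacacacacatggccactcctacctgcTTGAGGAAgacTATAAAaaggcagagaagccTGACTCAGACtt
Each window held a TATA box, at bases -31 to -26 for *Il1b* and -32 to -27 for *Il1a* from the start, which 12.4% of the 32817 promoter windows of this length also held. A C/EBP match lay at -91 to -84 in *Il1b* and at -43 to -36 in *Il1a*, where it overlapped the only PU.1 match (-41 to -36), and the C/EBP and PU.1 letters were found in 36.8% and 23.3% of all windows. Only the *Il1a* window held an AP-1 match (-12 to -6, in 6.75% of all windows), which overlapped a Smad match (-7 to -3, in 42.2%). The NF-κB and GAS letters, held by 7.25% and 7.01% of all windows, were in neither of these windows, which says nothing of elements farther away. A match is a run of letters and was not measured as a binding site.

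*Il18* (ENSMUSG00000039217, chromosome 9, 50554827 to 50581840) encodes the other caspase-1 substrate among the cytokines. It had 19.7, 31.1 and 21.6 CPM in sEH-/- libraries, next to 14.3, 13.5 and 16.5 CPM in wild-type ones. All sEH-/- libraries were above all wild-type libraries, but the lowest of the former and the highest of the latter were close. The log2 fold change was 0.71 (SE 0.19, 95% confidence interval 0.27 to 1.14, not adjusted for the number of genes), and with an adjusted p of 0.0650 from edgeR's quasi-likelihood test *Il18* was not called. DESeq2 gave a log2 fold change of 0.71 and an adjusted p of 0.0414, and by that tool, which called 3.42% of all genes, *Il18* was called next to *Il1b*. It was also called by edgeR without sEH-/- replicate 1 (log2 fold change 0.84, adjusted p = 0.0364), and over the fits with a library left out the log2 fold change ranged from 0.50 to 0.84.

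Of the genes whose products restrain these cytokines, *Il1rn* and *Il18bp* were transcribed at high levels in both genotypes. *Il1rn* (ENSMUSG00000026981, chromosome 2, 24336853 to 24351494, 105 Mb from *Il1a*) encodes the receptor antagonist. It had 282.6, 296.8 and 322.5 CPM in sEH-/- libraries, beside 314.2, 284.4 and 299.0 CPM in the wild-type, and the genotypes overlapped almost completely. The log2 fold change was 0.0068 (adjusted p = 0.971 with edgeR, SE 0.080), and its 95% confidence interval of -0.17 to 0.18 corresponds to 0.888-fold to 1.14-fold the wild-type level. *Il18bp* (ENSMUSG00000070427, chromosome 7, 102014885 to 102018690) had 198.8, 224.4 and 258.1 CPM against 236.8, 197.8 and 213.7 CPM. Its genotypes overlapped as well, with a log2 fold change of 0.071 (SE 0.10, 95% confidence interval -0.16 to 0.30, adjusted p = 0.735 with edgeR). The sign of these small differences depended on the libraries, since it was negative without sEH-/- replicate 3 for both genes (-0.037 for *Il1rn* and -0.020 for *Il18bp*) and without wild-type replicate 2 for *Il1rn* (-0.029).

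Of the receptors, *Il1r1* (ENSMUSG00000026072, chromosome 1, 40225080 to 40317257) had 14.2, 17.8 and 23.0 CPM in sEH-/- cells, compared with 16.3, 13.9 and 10.4 CPM in wild-type cells. The genotypes overlapped, and the highest value was that of sEH-/- replicate 3. Its log2 fold change was 0.43 (SE 0.22, 95% confidence interval -0.065 to 0.92, adjusted p = 0.282 with edgeR), so that neither no difference nor an increase past the threshold lay outside the interval. *Il1rap* (ENSMUSG00000022514, chromosome 16, 26581704 to 26730117), the accessory chain that IL-1R1 needs for signalling, had 75.8, 58.9 and 56.8 CPM against 62.4, 62.0 and 55.0 CPM. Only sEH-/- replicate 1 stood apart, and without it the log2 fold change of 0.10 (SE 0.12, adjusted p = 0.648 with edgeR) became -0.046. The decoy receptor *Il1r2* (ENSMUSG00000026073, chromosome 1, 40074079 to 40125231, 99.8 kb from *Il1r1*) was close to the limit of detection. It was counted 16, 1 and 7 times in sEH-/- cells, against 5, 15 and 9 times in wild-type cells. With so few counts, the log2 fold change of -0.17 (SE 0.61, 95% confidence interval -1.52 to 1.19) had an interval of more than a 2-fold difference in either direction. Without sEH-/- replicate 2 it was 0.36, and without wild-type replicate 2 it was 0.18. Counts per gene do not separate the transcripts for the membrane-bound and soluble forms of the receptor chains, nor the secreted and intracellular forms of the antagonist.

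**Figure D2:**
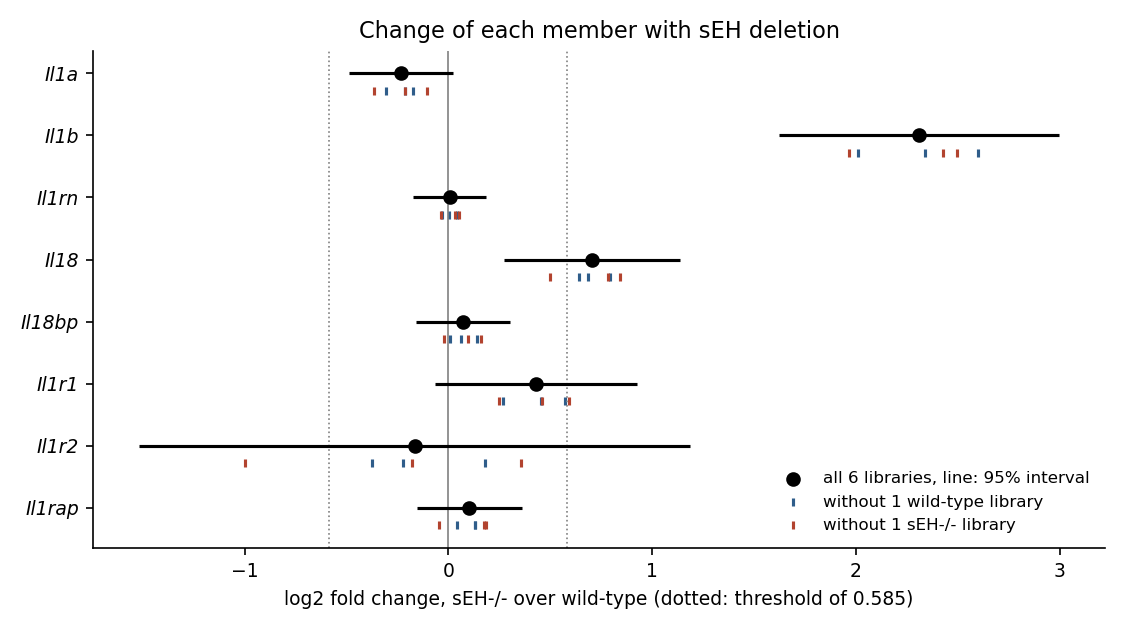
Log2 fold change of the 8 members (horizontal axis, sEH-/- over wild-type) with all 6 libraries (points, with lines for the 95% confidence interval), and with 1 library left out (small ticks, blue for a wild-type and red for an sEH-/- library). *Il1b* at 2.31 is the only member whose interval lies wholly beyond the dotted threshold of a 1.5-fold change, and the ticks of *Il1rn*, *Il18bp*, *Il1r2* and *Il1rap* fall on both sides of 0.

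Levels of different genes were compared as CPM per kilobase of exon, with the exons of all annotated transcripts of a gene merged. The order depends on these lengths, such as 5535 bases for *Il1rn* and 1974 for *Il1a*. As CPM alone, *Il1rn* (mean 299.2) was above *Il1a* (132.6) in wild-type cells. Counts of densely covered genes, among them *Il18bp*, *Il1a* and *Il1rn*, also rose less than in proportion to depth. In wild-type cells *Il18bp* was the highest (71.4 ± 6.48, SD, n = 3 mice), followed by *Il1a* (67.2 ± 6.71), *Il1rn* (54.1 ± 2.69), *Il18* (14.3 ± 1.52), *Il1rap* (5.27 ± 0.37), *Il1b* (4.22 ± 1.71), *Il1r1* (2.13 ± 0.46) and *Il1r2* (0.899 ± 0.35). The ranges of *Il18bp* and *Il1a*, of *Il1rap* and *Il1b*, and of *Il1b* and *Il1r1* overlapped, so that these neighbours were not separated. In wild-type M2c macrophages *Il1b* was therefore a minor transcript beside *Il1a*, and below both inhibitors. In sEH-/- cells the order began alike, with *Il18bp* (75.0 ± 9.83), *Il1a* (57.2 ± 9.21), *Il1rn* (54.3 ± 3.66) and *Il18* (23.4 ± 5.93). Here the range of *Il1a* (48.4 to 66.7) overlapped those of both *Il18bp* and *Il1rn*, so that it was not separated from either of them. *Il1b* (20.3 ± 7.27) came next, its range overlapping that of *Il18* and lying above that of *Il1rap* (5.62 ± 0.92).

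**Figure D3:**
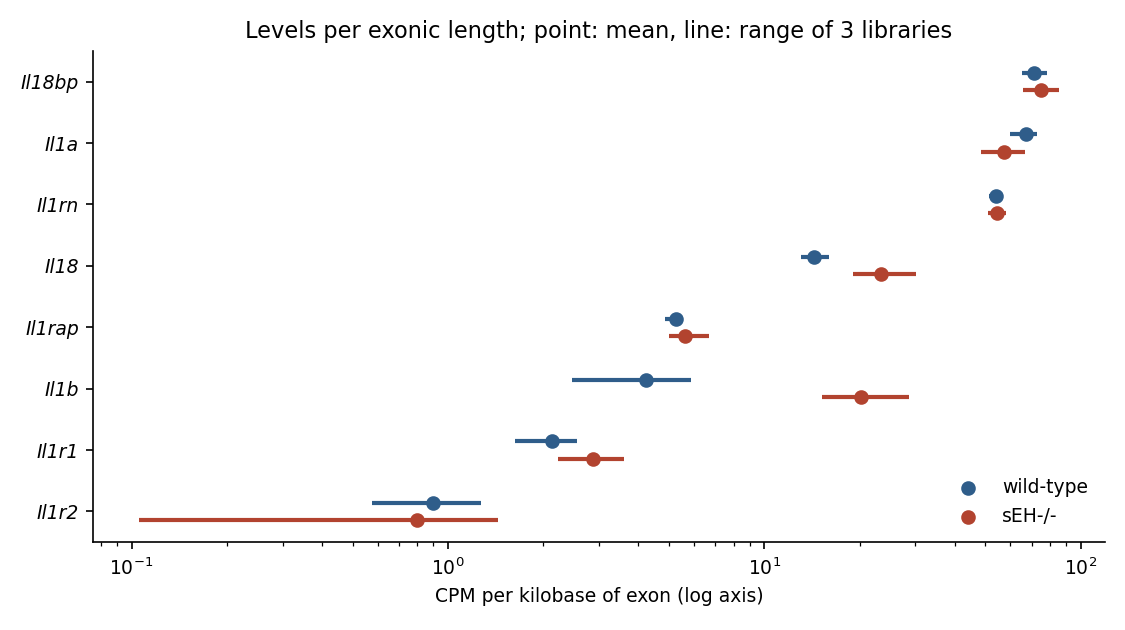
Level of the 8 members per exonic length (CPM per kilobase of exon, log axis) in wild-type (blue) and sEH-/- cells (red), with points for the mean and lines for the range of 3 libraries. *Il1b* moves from 4.22 in wild-type to 20.3 in sEH-/- cells, between *Il18* and *Il1rap*, and stays below *Il1a* and *Il1rn* in both genotypes.

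The balance of cytokine and inhibitor was read within each library, as the ratio of their counts per exonic base. This ratio does not depend on normalization factors but can depend on depth. The median slope of log2 counts on log2 library total was 1.2 for genes as densely covered as *Il1b* and *Il18*. It was 0.793 for those like *Il1rn* and 0.592 for those like *Il18bp*. The ratio of *Il1b* to *Il1rn* was 0.561, 0.285 and 0.293 in the sEH-/- libraries, compared with 0.105, 0.0488 and 0.0809 in wild-type libraries. The genotypes did not overlap, and the mean ratio was 4.84-fold higher in sEH-/- cells (log2 difference 2.28, two-sided exact permutation test p = 0.1). With 3 mice against 3, 0.1 is the smallest p this test can give, and after adjustment over the 5 ratios compared it was 0.167. Even so, the antagonist transcript exceeded that of IL-1β per exonic base in each of the 6 libraries.

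The ratio of *Il18* to *Il18bp* was 0.292, 0.408 and 0.247 against 0.178, 0.201 and 0.228, again without overlap (1.53-fold higher, exact permutation p = 0.1, adjusted 0.167). By contrast, the ratio of *Il1a* to *Il1rn* was 1.31, 0.902 and 0.970 against 1.05, 1.35 and 1.35, and overlapped between the genotypes (log2 difference -0.25, exact permutation p = 0.2, adjusted 0.25). The ratio of *Il1r1* to *Il1r2* overlapped too (log2 difference 1.03, exact permutation p = 0.7), and its highest value, 17.7 in sEH-/- replicate 2, rested on the 1 count of *Il1r2*. Without that library the log2 difference was 0.080, and without sEH-/- replicate 1 it was 1.85. The ratio of *Il1b* to *Il1a*, added after the values had been seen, was 0.429, 0.316 and 0.302 against 0.0994, 0.0363 and 0.0601 (5.74-fold higher, exact permutation p = 0.1, adjusted 0.167). It set the neighbouring genes apart without overlap between the genotypes.

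**Figure D4:**
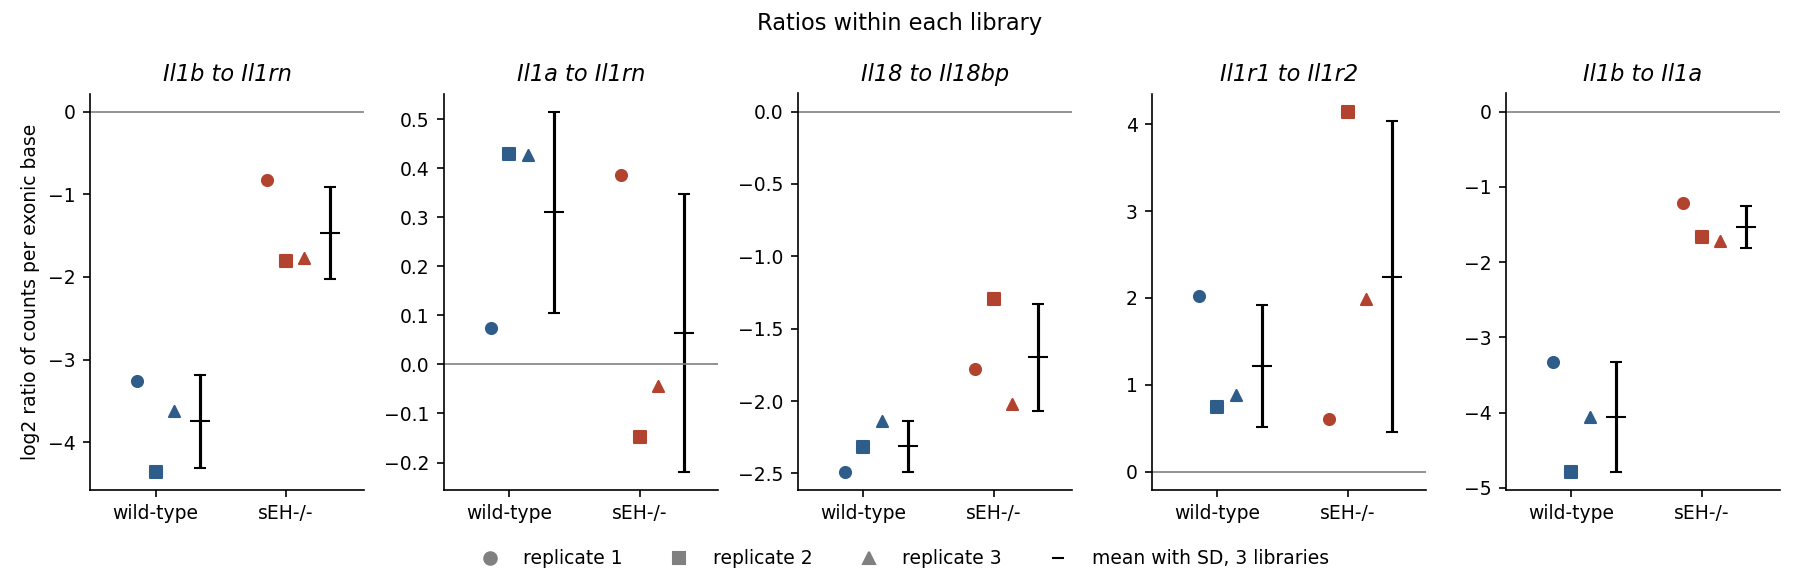
Log2 ratio of counts per exonic base for 5 pairs of genes (vertical axes, each panel with its own scale, grey line at 0 for equal levels) in the 3 wild-type and 3 sEH-/- libraries, with the mean and SD. The genotypes are apart for *Il1b* to *Il1rn*, *Il18* to *Il18bp* and *Il1b* to *Il1a* (log2 differences 2.28, 0.61 and 2.52) and overlap in the other panels.

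The genes whose pattern over the 6 libraries came closest to that of *Il1b* were sought among 10270 genes (mean count 50 or more) by the root mean square difference of log2 CPM centred on the wild-type mean. The neutrophil-attracting chemokine *Cxcl2* was the nearest, with a difference of 0.283, followed by *F630028O10Rik* (0.347) and *Cxcl1* (0.405). *Cxcl2* had 40.9, 24.6 and 16.9 CPM in sEH-/- cells, compared with 6.60, 4.38 and 5.38 CPM in wild-type cells. Both chemokines were highest in sEH-/- replicate 1 like *Il1b*, a likeness that follows in part from the selection by pattern. *F630028O10Rik* was about equal in sEH-/- replicates 1 and 2 (31.6 and 32.5 CPM).

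Of the other ligands and receptors of the family, 8 of 13 had a row in the table and 5 were tested. With edgeR 0 were called and 1 had an unadjusted p below 0.05, and 0 were called by DESeq2. Over all genes tested, edgeR called 2.61% and gave 23.4% an unadjusted p below 0.05, and DESeq2 called 3.42%. *Il1rl2*, the IL-36 receptor, which lies 7.35 kb from *Il1r1*, had 112.7, 114.0 and 108.3 CPM in sEH-/- libraries, against 89.7, 82.4 and 77.8 CPM in the wild-type. The genotypes did not overlap, but the log2 fold change of 0.43 was below the threshold for a call. Its adjusted p of 0.0217 with edgeR (SE 0.075) was below 0.05, as for 4.01% of all genes regardless of their fold change. *Il1f9*, which encodes IL-36γ, varied from 4.64 to 18.1 CPM in sEH-/- and from 6.60 to 13.9 CPM in wild-type libraries (log2 fold change 0.17, adjusted p = 0.852 with edgeR). *Sigirr*, an inhibitory receptor of the family, had between 3 and 15 counts per library (log2 fold change 0.81, adjusted p = 0.335 with edgeR). Outside the rule for named genes, the genes for the IL-33 receptor (*Il1rl1*) and the IL-18 receptor (*Il18r1*) were listed with 0 counts in all 6 libraries, which allows up to 0.487 to 0.696 CPM. Both lie in the same 478 kb of chromosome 1 as *Il1r2*, *Il1r1* and *Il1rl2*. Transcripts for the binding chain of the IL-18 receptor were thus not detectable at this depth in cells that transcribed *Il18* and *Il18bp*.

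Of the genes for processing and release of the cytokines, 17 were tested and 3 were called, all higher (median log2 fold change 0.13). Over all genes tested, 1.51% were called higher and 2.61% in either direction. *Nlrp3*, the sensor of the inflammasome that cleaves pro-IL-1β, had 155.5, 192.3 and 155.4 CPM in sEH-/- cells, compared with 98.3, 79.5 and 80.8 CPM in wild-type cells. The genotypes did not overlap, and edgeR gave an adjusted p of 0.00581 (log2 fold change 0.97, SE 0.11). *Nlrc4*, whose product forms an inflammasome in response to bacterial flagellin and secretion systems, had 61.6, 70.8 and 53.1 CPM against 38.3, 38.6 and 45.4 CPM. Its edgeR estimate of 0.60 on the log2 scale (SE 0.12, adjusted p = 0.0288) was close to the threshold. *Gsdme*, a pore-forming gasdermin cleaved by caspase-3, had 24.8, 24.4 and 16.9 CPM against 15.6, 10.7 and 10.04 CPM (adjusted p = 0.0488 with edgeR, log2 fold change 0.89, SE 0.21). The genes for caspase-1, its adaptor ASC and gasdermin D, named for their roles after their values were seen, were not called. *Casp1* had a log2 fold change of 0.11 (adjusted p = 0.486), *Pycard* of 0.021 and *Gsdmd* of 0.19 (adjusted p = 0.185, edgeR for all 3).

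Among 26 genes for signal transduction below the receptors, 1 was called, and it was lower (median log2 fold change 0.022). Of all genes tested, 1.1% were called lower and 2.61% in either direction. The gene called was *Peli3*, an E3 ubiquitin ligase that binds IRAK proteins, with 20.5, 19.0 and 20.9 CPM in sEH-/- libraries, below all wild-type libraries with 31.4, 37.0 and 28.3 CPM. The estimate from edgeR was -0.68 on the log2 scale (SE 0.14, adjusted p = 0.0296). The kinase *Irak2* (log2 fold change -0.11, adjusted p = 0.424 with edgeR) and the adaptor *Tab2* (-0.043, adjusted p = 0.766), which had the most counts in this list, were not called. Outside the rule for named genes, *Irak3* was higher without overlap but below the fold threshold (0.33, adjusted p = 0.0345 with edgeR). In this list 6 genes were higher and 5 lower without overlap, against 11.8% of all genes tested in the higher direction and 26.3% in either.

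Among 14 genes that control *Il1b* transcription or its mRNA, 1 was called, and it was higher (median log2 fold change 0.093). The shares of all genes tested were 1.51% called higher and 2.61% called in either direction. The gene called was *Nfkbiz*, whose product IκBζ is an NF-κB cofactor in the nucleus. It had 49.3, 48.2 and 30.1 CPM against 15.2, 19.2 and 18.3 CPM. All sEH-/- libraries were higher, with an adjusted p of 0.0143 from edgeR (log2 fold change 1.28, SE 0.19). *Hif1a* (0.12, adjusted p = 0.511) and *Irf8* (-0.0063, adjusted p = 0.978 with edgeR), which had the most counts in this list, were not called. Over the 4 lists, 5 of 62 genes tested were called (8.06%), beside 2.61% of all genes tested. Because the lists were chosen with earlier results of these data known, the higher share may reflect that choice and was not tested.

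**Figure D5:**
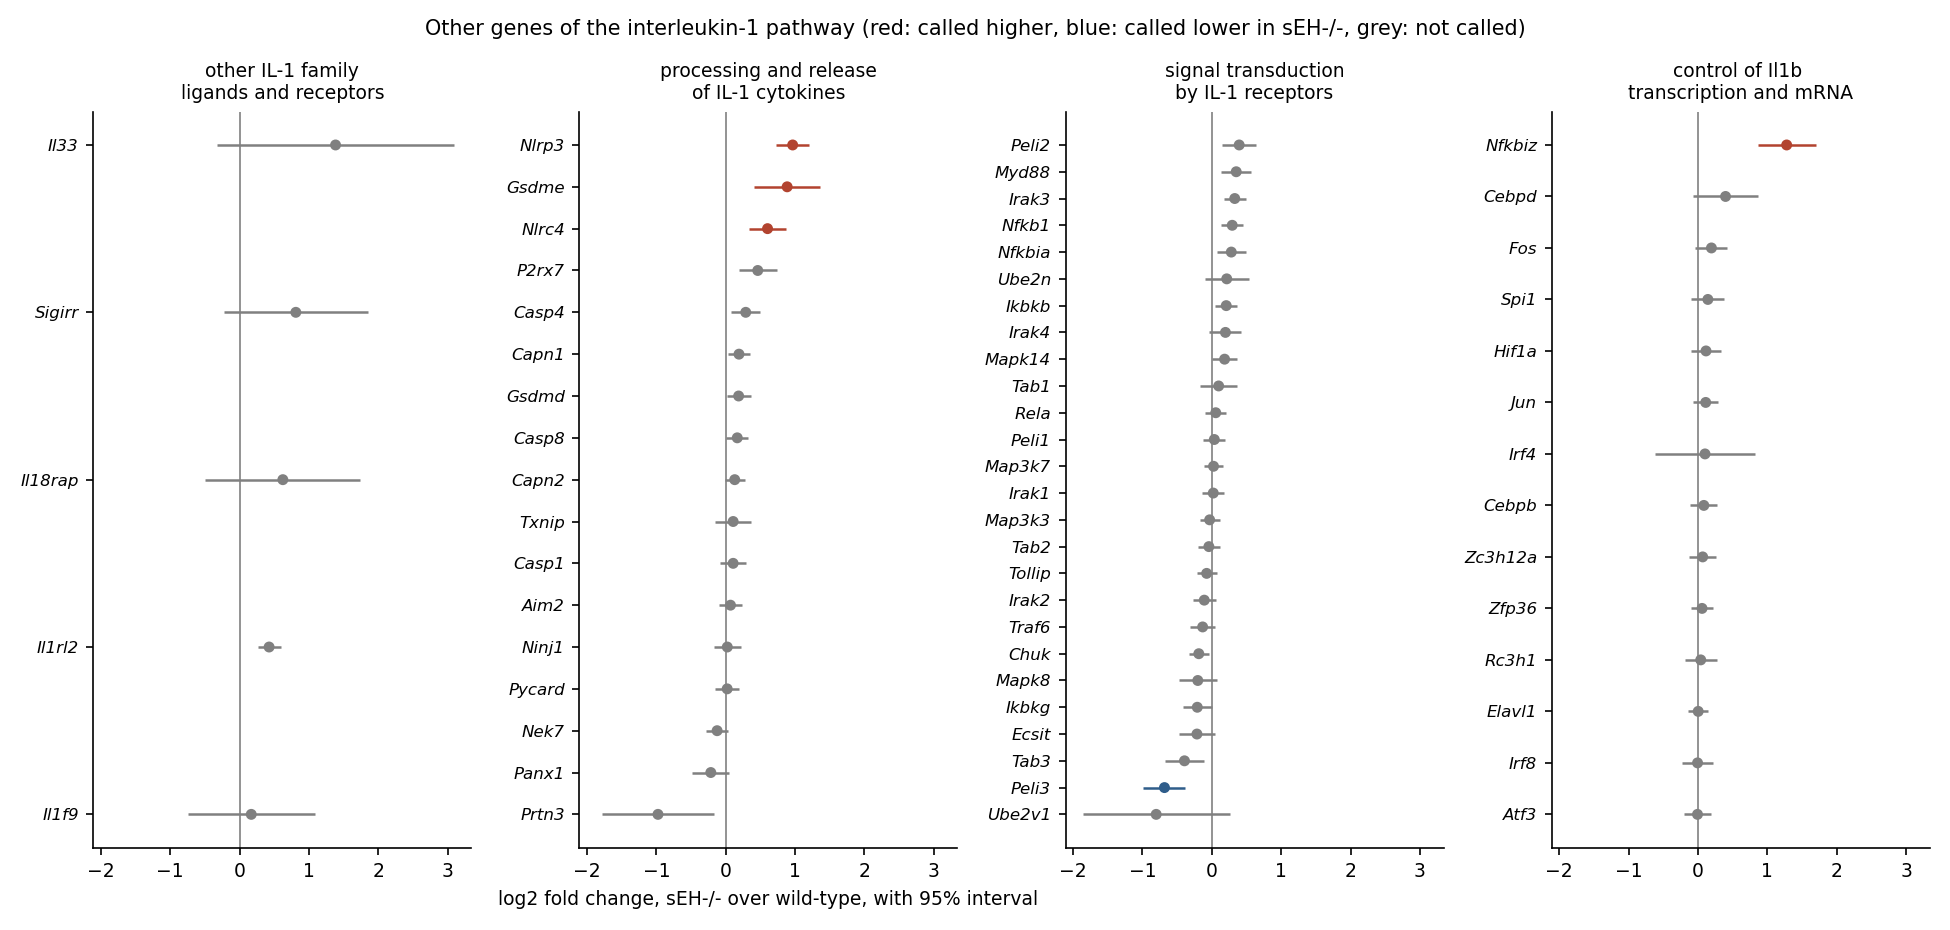
Log2 fold change (sEH-/- over wild-type, with 95% confidence intervals from 6 libraries) of the 62 tested genes in 4 lists of the pathway, sorted within each list. Of these, 4 are called higher (red: *Nlrp3*, *Gsdme*, *Nlrc4* and *Nfkbiz*), 1 is called lower (blue: *Peli3*) and the others are grey.

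The calls depended on the libraries. Without wild-type replicate 3, all 5 calls were lost, in a fit with 6 calls over all genes, and without wild-type replicate 2 only *Nlrp3* was called. Without sEH-/- replicate 2, *Nlrp3* and *Nfkbiz* were called. *Gsdme* also lost its call without sEH-/- replicate 1 (adjusted p = 0.0722 with edgeR), and *Nlrc4* without wild-type replicate 1, where its log2 fold change was 0.56. In RNA from whole cultures, fewer cells with a transcript and less of it per cell cannot be told apart. Macrophage marker sums overlapped between the genotypes (1980 to 2460 against 1740 to 2200 CPM), but the estimate for each of the 8 markers was above 0 and *Cd14* had an adjusted p of 0.0288 with edgeR (log2 fold change 0.50). These sums are a coarse measure, since genes as densely covered as *Lyz2* (0.881 counts per exonic base), *Cd68* (0.886), *Adgre1* (0.635) and *Cd14* (0.501) had counts that changed little with the library total (median slope 0.287 on log2 scales). Their CPM therefore tends to be lower in larger libraries. *Lyz2*, for example, had 267.6 CPM in the smallest library (sEH-/- replicate 3) and 190.3 CPM in the largest (wild-type replicate 2). The part of these markers, of the neutrophil genes *S100a8*, *Camp*, *Ngp* and *Elane*, and of the dendritic cell gene *Zbtb46* in the differences was not tested.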

How the data were processed

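Raw counts for 19309 genes in 6 libraries were deposited by the authors. According to the study's methods, reads were trimmed (Trimmomatic), aligned to mm10 (STAR), freed of duplicates (Picard) and of reads with several positions or from ribosomal or mitochondrial RNA, and counted by strand over exons (featureCounts). The submitters' processing notes name STAR 2.7.7a, Picard 2.21.7 and featureCounts 1.6.5, and the methods name other releases and another library kit than the labels. Counts of densely covered genes rose less than in proportion to depth, and the part of duplicate removal in this was not tested. The median slope of log2 counts on log2 library total was 0.793 for genes with 0.2 to 0.3 counts per exonic base (*Il1rn*, 0.282) and 0.592 for those with 0.3 to 0.5 (*Il1a*, 0.329, and *Il18bp*, 0.379), so that differences of these genes may be underestimated.

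Counts were tested in R 4.3.3 with edgeR 4.0.16 (TMM, glmQLFit, glmQLFTest, no covariates) over the 13785 genes with a mean count above 5, with Benjamini-Hochberg adjustment. TMM factors were 0.982 to 1.03. The SE was derived from the F statistic, whose root divides the log2 fold change. Confidence intervals (95%) are per gene. Limits for 0 counts (3 counts per library) and counts as such cover counting error only. Exonic lengths were merged exons of GENCODE M21. Ratios had 0.5 added to each count and were compared by exact permutation tests in scipy 1.17.1. All 8 members had a promoter in the RefSeq table.

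The members and lists were chosen with earlier results of these data known, and the thresholds are those of the study. Named genes were the members, *Ephx2*, the called genes of each pathway list (filled up to 3 with those of the highest mean count) and the 3 genes most like each called member. Alternatives were DESeq2 1.42.0, limma-voom (limma 3.58.1), RLE factors, no TMM factors, other filters, no fold change threshold, glmTreat, a replicate block, thinning to the smallest library, the log2 library total as covariate, leaving out each library and other pseudocounts for ratios. A ceiling correction (1 count per exonic base) was chosen after seeing the data. The neutrophil markers *Ly6g*, *Mpo* and *Retnlg* had no row under these symbols in the count table, so their levels were not analysed here. Figures were drawn with matplotlib 3.10.9.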

Additional observations from a re-analysis of the deposited data

How the results depend on the processing

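The log2 fold change of *Il1b* was above 0 in all 19 alternatives (1.96 to 2.60) and the gene was called in 17 of them, with adjusted p from 1.8e-12 to 0.0886. These are not independent checks. The run without a fold change threshold and glmTreat share the main estimate of each gene (2.31 for *Il1b*). Their sign, and the call in the former, were therefore fixed in advance. *Il1b* was not called by glmTreat, which tests against the threshold itself (adjusted p = 0.0598), and without wild-type replicate 3 (2.34). The number of members called was 2 with DESeq2 and without a filter on low counts, where *Il18* was added (0.71, adjusted p = 0.0414, and 0.70, adjusted p = 0.045), and 0 with glmTreat. With a library left out it ranged from 0 to 2, and *Il18* was called without sEH-/- replicate 1 (0.84). Over all alternatives the adjusted p of *Il18* ranged from 0.0364 to 1. The 5 calls in the pathway lists became 0 with glmTreat and 2 with the log2 library total as covariate, and ranged from 0 to 5 with a library left out. *Il1a* and *Il1r1* kept their sign and were not called in any alternative.

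Small differences changed sign. With a library left out they ranged from -0.037 to 0.050 for *Il1rn*, -0.020 to 0.16 for *Il18bp*, -0.9996 to 0.36 for *Il1r2* and -0.046 to 0.19 for *Il1rap*. For *Il1rn* the log2 fold change was -0.014 without TMM factors, -0.030 with the covariate, -0.037 without sEH-/- replicate 3, -0.029 without wild-type replicate 2 and -0.0052 with the ceiling correction. For *Il18bp* it was -0.0022 with the covariate and -0.020 without sEH-/- replicate 3. For *Il1r2* it was 0.068 with the covariate, 0.36 without sEH-/- replicate 2 and 0.18 without wild-type replicate 2, and the gene was not tested at a minimum of 10 counts in every library or with filterByExpr. For *Il1rap* it was -0.046 without sEH-/- replicate 1. The cause was not tested.

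Between libraries of equal replicate number, the correlations of the deviations from the genotype mean were -0.086, -0.27 and -0.038 over the genes tested. With 3 libraries per genotype these values cannot decide whether the samples were paired. *Il1b* itself was highest in replicate 1 and lowest in replicate 2 in both genotypes. With the replicate block, *Il1b* was called (log2 fold change 2.28, adjusted p = 0.00115), *Il18* was not (0.70, adjusted p = 0.112), 1 member was called, and of the 5 pathway genes 2 were called. The replicate block called 234 of all genes, against 360 without it. Over all genes the number called was 518, 96 and 570 without sEH-/- replicates 1, 2 and 3, 625, 25 and 6 without wild-type replicates 1, 2 and 3, 171 with the covariate and 10 with glmTreat. The direction of all 5 ratios was the same in each of their 9 alternatives, but part of this was fixed in advance. For ratios the replicate block gives the main difference by construction. Where the genotypes did not overlap, leaving out a library could not change the direction. Over the alternatives the log2 difference ranged from 1.96 to 2.52 for *Il1b* to *Il1rn*, 2.16 to 2.88 for *Il1b* to *Il1a*, 0.41 to 0.78 for *Il18* to *Il18bp*, -0.41 to -0.14 for *Il1a* to *Il1rn* and 0.080 (without sEH-/- replicate 2) to 1.85 for *Il1r1* to *Il1r2*. Counts limited *Il1r2*, whose interval spans a 0.350-fold to 2.28-fold level.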
